A study of Mus musculus with 6 samples.

Results

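Cohesin, its regulators and CTCF were examined as a set of 10 genes chosen by symbol: Smc1a, Smc3, Rad21, Stag1, Stag2, Nipbl, Wapl, Pds5a, Pds5b and Ctcf. All 10 were found among the 16022 gene symbols of the deposited table, and all 10 were among the 12875 genes that passed the filter on low counts. RNA had been sequenced from bone marrow LSK cells of mice, a lineage-negative fraction that carries Sca-1 and c-kit and holds the blood stem cells with their earliest descendants. The 6 libraries were 3 from wild-type (WT) mice and 3 from HDAC6 knockout mice, which lack a deacetylase that acts mostly in the cytoplasm. The sources used here name no strain, age, sex or number of animals per library, nor the allele by which Hdac6 was removed. The p-values therefore measure the spread between these libraries, which may be technical.

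Cohesin is a ring-shaped protein complex built from a pair of SMC ATPases, a kleisin subunit that closes the ring and a STAG subunit that binds DNA and CTCF. NIPBL loads the ring and drives it to extrude loops of chromatin, WAPL with the PDS5 proteins releases it, and CTCF bound to DNA stops it, which sets the borders of chromatin loops. The same ring holds sister chromatids together until mitosis. Mutations in cohesin genes, most often STAG2, are known from human myeloid leukemia, and loss of cohesin subunits in mice is known to alter the balance of stem cell renewal and differentiation.

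None of the 10 genes passed the test between genotypes, and the size of any difference was bounded. The edgeR adjusted p, corrected over all tested genes with a threshold of 0.05, ran from 0.479 for Nipbl to 0.958 for Stag1. Of the 10, 0 were called by edgeR, where 0.00777% of all tested genes were called (Hdac6 alone), and 0 had an unadjusted p under 0.05, where 13.4% of all tested genes did. DESeq2 also called 0 of the 10, against 1.35% of the 13374 genes to which it gave an adjusted p. The 95% interval of the fold change lay between 1.5-fold lower and 1.5-fold higher for 10 of 10 members, and for 42.8% of all tested genes. The median absolute log2 fold change was 0.08 over the members and 0.21 over all tested genes. Every member lay within the middle 50% of all tested log2 fold changes, which spanned -0.23 to 0.20, with Nipbl lowest at -0.18 and Wapl highest at 0.19. The members are well expressed, at the 59.8th to 97.5th percentile of tested genes by mean CPM. The part of the level in these contrasts with all tested genes was not tested. In bulk RNA, fewer cells of a type and less RNA per cell cannot be told apart, and this holds for each level below.

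Libraries held 25993971 to 28743672 counts, and the members held from 1182 counts (Ctcf, WT replicate 1) to 11936 counts (Smc1a, knockout replicate 1). Hdac6 itself had 54.3 to 68.0 CPM (a gene's share of its library's counts, on the usual per-library scale with TMM, the trimmed mean of M values, as the size correction) in WT and 7.69 to 11.3 CPM in knockout libraries, as the labels say. The gate markers Kit (725 to 1367 CPM) and Ly6a, which encodes Sca-1 (60.3 to 119 CPM), were present in every library, while the T cell gene Cd3e stayed at or below 0.15 CPM and the neutrophil gene Ly6g at or below 0.57 CPM. Some other lymphoid markers were read in every library: Cd4 at 4.74 to 10.3 CPM, Cd8a at 0.798 to 2.03 CPM and the B cell gene Cd79b at 49.4 to 58.9 CPM. Some other neutrophil genes were read and were lower in every knockout library: Ltf at 5.87 to 24.7 CPM in WT and 1.02 to 2.86 CPM in the knockouts, Ngp at 10.1 to 30.1 and 2.25 to 6.13 CPM, and S100a8 at 10.3 to 20.6 and 3.92 to 8.70 CPM. The rest of the neutrophil and monocyte genes tested overlapped between the genotypes. Knockout means were lower for S100a9, Camp and Itgam and higher for Csf1r and Adgre1. The Y-linked gene Ddx3y was read at 76.3 to 97.6 CPM in all 6 libraries. Summed levels of 6 marker lists (progenitor, B, T, natural killer, neutrophil and monocyte, erythroid) overlapped between the genotypes. Progenitor markers ran from 4159 to 4665 CPM in WT and 3382 to 4280 CPM in knockout libraries, and neutrophil and monocyte markers from 140 to 230 CPM and 118 to 304 CPM. The sums are carried by a few abundant genes, and single markers did differ: unadjusted p was under 0.05 for 5 of 8 progenitor, 5 of 8 neutrophil and monocyte, 3 of 5 natural killer, 3 of 5 erythroid, 0 of 4 B cell and 0 of 2 T cell genes tested, with 0 called by edgeR. The natural killer genes Prf1, Gzma and Ncr1 were at most 2.54 CPM in WT and reached 4.46, 7.47 and 14.1 CPM in single knockout libraries. Of these, Prf1 was higher in every knockout library, while Gzma, Ncr1 and the rest of that list overlapped between the genotypes. Nkg7, by far its most abundant gene, was at 260 to 311 CPM in WT and 256 to 312 CPM in knockout libraries, and Klrb1c at 2.69 to 4.88 and 3.19 to 8.88 CPM. The part of these markers in the members' values was not tested. Knockout replicate 3 lay nearer to WT than to its own group. The chi-square of its counts against each WT library, over the degrees of freedom, was 25.8 to 35.6, while it was 53.9 and 58.5 against knockout replicates 2 and 1.

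Of the ring subunit genes, Smc1a and Smc3 came first by level per transcript length, while Rad21 was among the 6 members without a firm order. Smc1a, which encodes an ATPase of the ring and lies on the X chromosome, measured 421, 413 and 398 CPM in WT replicates 1 to 3 and 438, 393 and 425 CPM in knockout replicates 1 to 3. Smc3, on chromosome 19, encodes the partner ATPase whose acetylation locks the ring on DNA, and it measured 277, 255 and 267 CPM in WT and 285, 276 and 264 CPM in knockout libraries. Rad21, on chromosome 15, encodes the kleisin that separase cuts at anaphase, and it measured 45.9, 43.2 and 45.5 CPM in WT and 45.4, 47.6 and 48.4 CPM in knockout libraries. The knockout values of all 3 genes interleaved with the WT values. Their log2 fold changes were 0.03 (SE 0.09) for Smc1a, 0.05 (SE 0.09) for Smc3 and 0.07 (SE 0.12) for Rad21, and the sign of each turned when library size alone or the FPKM scale was used. The intervals of the fold change were 0.886 to 1.18 for Smc1a, 0.895 to 1.19 for Smc3 and 0.871 to 1.27 for Rad21.

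**Figure D1:**
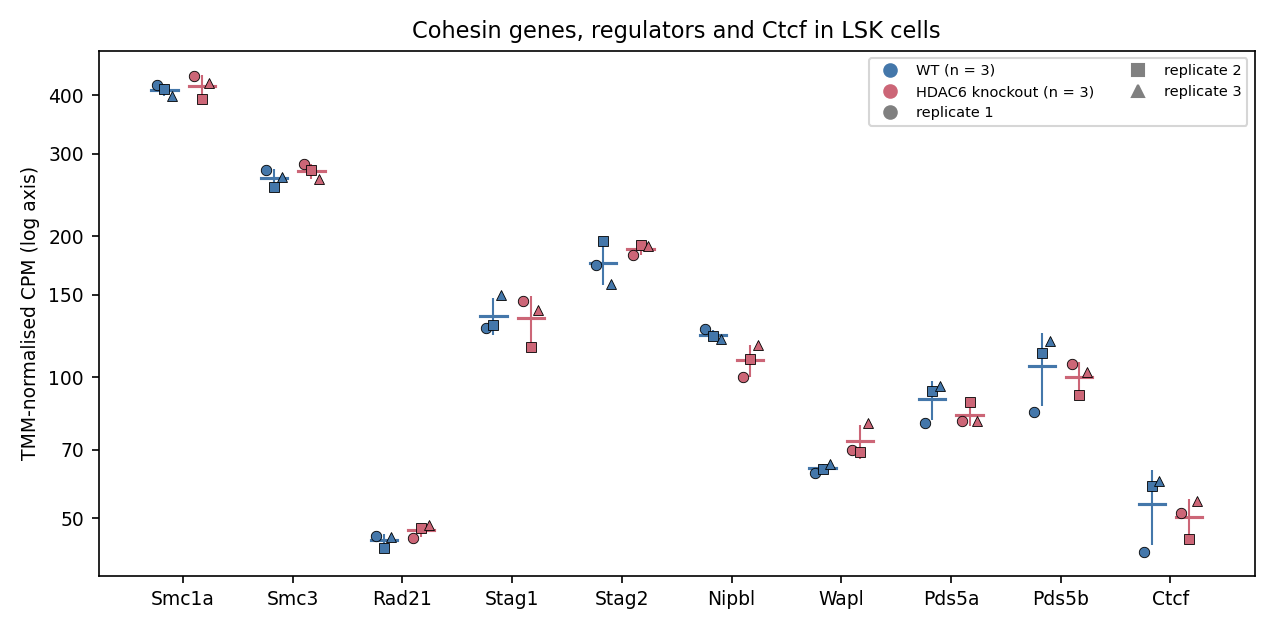
TMM-normalised CPM (log axis) of the 10 genes in each library, with WT in blue and HDAC6 knockout in red, marker shape for the replicate, and horizontal and vertical lines for mean and SD of 3 libraries. The genotypes overlap for every gene except Nipbl, which is lower in each knockout library, and Wapl, which is higher in each.

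The STAG subunits are alternatives: a ring holds either STAG1 or STAG2. Stag2, on the X chromosome, measured 173, 195 and 158 CPM in WT and 182, 191 and 191 CPM in knockout libraries. Stag1, on chromosome 9, measured 127, 129 and 150 CPM in WT and 145, 116 and 139 CPM in knockout libraries. For both genes the genotypes overlapped, and for Stag2 the spread was wider among the WT libraries (SD 18.4 CPM) than among the knockout libraries (SD 5.25 CPM). The fold change was 1.07 for Stag2 (95% interval 0.906 to 1.27) and 0.987 for Stag1 (0.815 to 1.19). The sign for Stag1 turned without WT replicate 3 (log2 fold change 0.07) and without knockout replicate 2 (0.07).

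The loader and the releaser were the members whose groups did not overlap, 2 of 10, where 18.6% of all tested genes had non-overlapping groups. Nipbl, on chromosome 15, encodes the large loading factor whose haploinsufficiency underlies Cornelia de Lange syndrome. Nipbl measured 126, 123 and 121 CPM in WT and 99.99, 109 and 117 CPM in knockout libraries, so each knockout library lay below the lowest WT library. The means were 123 ± 3.00 CPM and 109 ± 8.57 CPM (SD, n = 3 each), a fold change of 0.883 (95% interval 0.748 to 1.04) that did not pass the edgeR test (adjusted p = 0.479). Wapl, on chromosome 14, encodes the factor that opens the ring and takes it off chromatin. Its values were 62.6, 63.8 and 65.4 CPM in WT and 69.9, 69.3 and 79.8 CPM in knockout libraries, each knockout library lying above each WT library. On the deposited FPKM scale the groups all but touched, at 10.5, 10.78 and 10.83 in WT and 10.87, 10.85 and 13.18 in knockout libraries. The means were 64.0 ± 1.40 CPM and 73.0 ± 5.92 CPM (SD, n = 3 each), a fold change of 1.14 (0.953 to 1.37) that also did not pass (edgeR adjusted p = 0.488). Nipbl was below WT and Wapl above WT in all 16 alternatives of processing or left-out libraries, with log2 fold changes of -0.25 to -0.12 and 0.11 to 0.23, and neither was called in any. Knockout replicate 3, the library nearest to WT over all genes, set much of the value for Wapl, which was 0.12 without it, while that for Nipbl was -0.24 without it. Without knockout replicate 1 the value for Nipbl was -0.12.

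The release cofactors Pds5a and Pds5b both lie on chromosome 5 and encode HEAT-repeat proteins that bind WAPL and also support acetylation of SMC3. Pds5a measured 79.8, 93.3 and 96.0 CPM in WT and 80.5, 88.6 and 80.7 CPM in knockout libraries. Pds5b measured 84.3, 113 and 120 CPM in WT and 106, 91.5 and 103 CPM in knockout libraries. Both sets of values overlapped, with WT replicate 1 the lowest library for each. The fold change was 0.928 for Pds5a (95% interval 0.773 to 1.12) and 0.949 for Pds5b (0.759 to 1.19), and the sign for Pds5b turned without WT replicate 3 (log2 fold change 0.03).

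Ctcf, on mouse chromosome 8, encodes the zinc finger protein at which loop extrusion stops. It measured 42.4, 58.6 and 60.1 CPM in WT and 51.4, 45.2 and 54.3 CPM in knockout libraries, with overlapping groups and a fold change of 0.938 (95% interval 0.732 to 1.2). This was the widest interval of the 10 on the log2 scale, and the sign turned without WT replicate 3 (log2 fold change 0.0022). In the GENCODE M21 annotation an exon of Agrp, on the opposite strand, shares 114 bases with Ctcf exons. No strand setting of the counting is named in the labels or file headers, so reads from that stretch cannot be assigned to one of the genes.

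**Figure D2:**
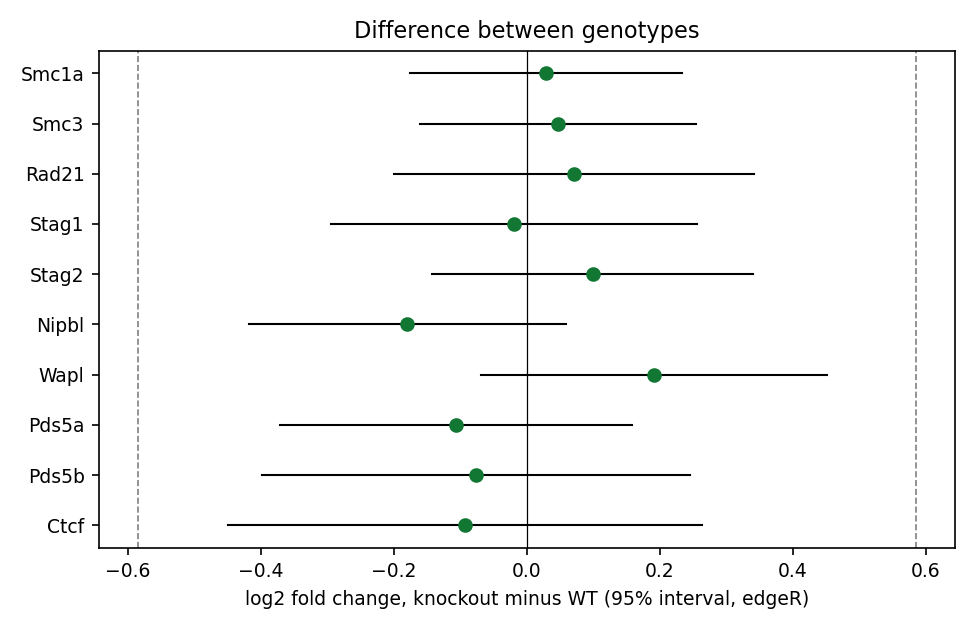
Log2 fold change, knockout minus WT, of each gene (points) with its 95% interval from edgeR (lines). Dashed lines mark 1.5-fold in either direction, and all 10 intervals lie between them and cover 0.

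Within the groups the members differed in how steady they were. The coefficient of variation among WT libraries ran from 2.19% for Wapl and 2.43% for Nipbl to 17.7% for Pds5b and 18.2% for Ctcf. Its median over the members was 6.74% in WT and 6.70% in the knockout, against 15.1% and 14.0% over all tested genes. The members are also well expressed, at the 59.8th to 97.5th percentile of tested genes by mean CPM, and the part of the level in this smaller spread was not tested. Stag1, Pds5b and Ctcf shared the libraries in which they were low, a pattern picked after the values were seen: WT replicate 1 was the lowest WT library and knockout replicate 2 the lowest knockout library for all 3. Other members were mixed. WT replicate 1 was the highest WT library for Smc1a, Smc3, Rad21 and Nipbl, and the lowest for Wapl and Pds5a. The mean of the 10 genes, centred per gene on the log2 CPM scale, includes the 3 picked genes, so it is no separate evidence of their pattern. This mean was lowest in WT replicate 1 (-0.075) and knockout replicate 2 (-0.05) and highest in WT replicate 3 (0.05) and knockout replicate 3 (0.04). Among the other tested genes, Srcap (Pearson r = 0.996, Spearman rho = 0.943 over 6 libraries), a chromatin remodeler gene, followed this mean most closely, and Tubgcp6, Lhfp, Gna13 and Foxk1 came next (r of 0.974 to 0.988). Atpif1 (r = -0.992), Polr3c, Nectin2, Myo1h and Vps26a ran most opposite. These genes were picked for the highest and lowest r out of all tested genes, and Lhfp stood at or below 0.61 CPM.

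Since Stag1, Pds5b and Ctcf shared that pattern, the bases just upstream of their start sites are shown with those of Wapl, the member higher in every knockout library. They come from the RefSeq promoter table of build GRCm38.p6, in which 7 of the 10 members were matched by symbol. Each runs 5′ to 3′ on the gene's strand over the 250 bases before the start. Capitals mark matches to 4 motifs, each searched on both strands. One is the GC box, spelled GGGCGG, which Sp1 binds. The next is the box spelled CCAAT, where NF-Y binds. The YY1 motif was searched as AANATGGC, and the core of the NRF1 motif as TGCGCA.
Stag1, chr9:100643198-100643447, plus strand: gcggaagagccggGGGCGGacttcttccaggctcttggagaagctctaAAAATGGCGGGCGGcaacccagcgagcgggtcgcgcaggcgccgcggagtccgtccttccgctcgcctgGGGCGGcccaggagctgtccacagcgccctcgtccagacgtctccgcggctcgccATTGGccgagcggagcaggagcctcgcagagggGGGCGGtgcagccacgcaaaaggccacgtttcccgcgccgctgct
Pds5b, chr5:150673577-150673826, plus strand: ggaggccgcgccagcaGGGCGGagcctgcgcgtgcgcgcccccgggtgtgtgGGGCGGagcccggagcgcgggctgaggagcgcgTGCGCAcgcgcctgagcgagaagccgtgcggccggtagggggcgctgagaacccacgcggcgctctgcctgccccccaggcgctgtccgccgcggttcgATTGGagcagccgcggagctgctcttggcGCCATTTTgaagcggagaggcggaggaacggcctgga
Ctcf, chr8:105636288-105636537, plus strand: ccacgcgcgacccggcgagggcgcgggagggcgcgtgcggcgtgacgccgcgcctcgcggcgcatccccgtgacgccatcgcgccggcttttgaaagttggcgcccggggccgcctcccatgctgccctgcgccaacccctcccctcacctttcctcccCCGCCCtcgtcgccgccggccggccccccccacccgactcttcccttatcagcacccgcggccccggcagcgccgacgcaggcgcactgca
Wapl, chr14:34673678-34673927, plus strand: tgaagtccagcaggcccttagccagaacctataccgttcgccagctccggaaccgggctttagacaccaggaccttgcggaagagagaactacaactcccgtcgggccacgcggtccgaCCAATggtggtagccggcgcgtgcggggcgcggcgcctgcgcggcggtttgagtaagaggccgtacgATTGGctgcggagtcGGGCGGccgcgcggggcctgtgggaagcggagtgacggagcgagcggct

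All 4 windows hold a GC box, and so do those of Smc1a, Smc3 and Pds5a. Over the first listed window of each of 27025 symbols, 32.9% hold a GC box. A CCAAT box is present for Stag1, Wapl, Pds5b and Smc1a (4 of 7) and in 34.5% of all windows. The YY1 motif occurs in Stag1 and Pds5b (2 of 7, against 3.93% of all windows). In the Stag1 window it abuts a GC box without overlap. The NRF1 core was found in Pds5b alone of the 7, against 6.66% of all windows, and the ETS motif CCGGAAG and the E box motif CACGTG were found in 0 of 7. The GC content of the 7 windows ran from 56.8% (Smc1a) to 80.4% (Pds5a), above the median of 52.0% over all windows. The matches are letters in a window and were not set against any binding data.

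Levels of different genes were compared only per transcript length, on the deposited FPKM scale (fragments per kilobase of transcript, scaled to sequencing depth). Smc1a was highest at 111 ± 5.67 FPKM, then Smc3 at 58.4 ± 1.63, Stag2 at 33.2 ± 2.79 and Stag1 at 22.6 ± 2.34 FPKM (SD over all 6 libraries). For each of these 4 the lowest library lay above the highest library of the next gene. The other 6, from Pds5b (14.5 ± 2.01), Pds5a (14.0 ± 1.19), Rad21 (13.9 ± 0.58), Nipbl (12.1 ± 1.40) and Ctcf (12.04 ± 1.52) to Wapl (11.2 ± 0.99 FPKM), overlapped their neighbours and have no firm order. Per length on the FPKM scale, the level of Smc1a was 8.02 times and that of Smc3 4.21 times the level of the kleisin gene Rad21. Each ring holds 1 copy of each protein, but these are RNA levels, and protein was not measured. CPM per kilobase of the longest GENCODE coding transcript, an alternative added after the data were seen, kept the first 5 places and gave a Smc1a to Rad21 ratio of 7.60. On that scale Pds5a moved from place 6 to place 10 (9.69) and Ctcf from place 9 to place 6 (13.8).

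**Figure D3:**
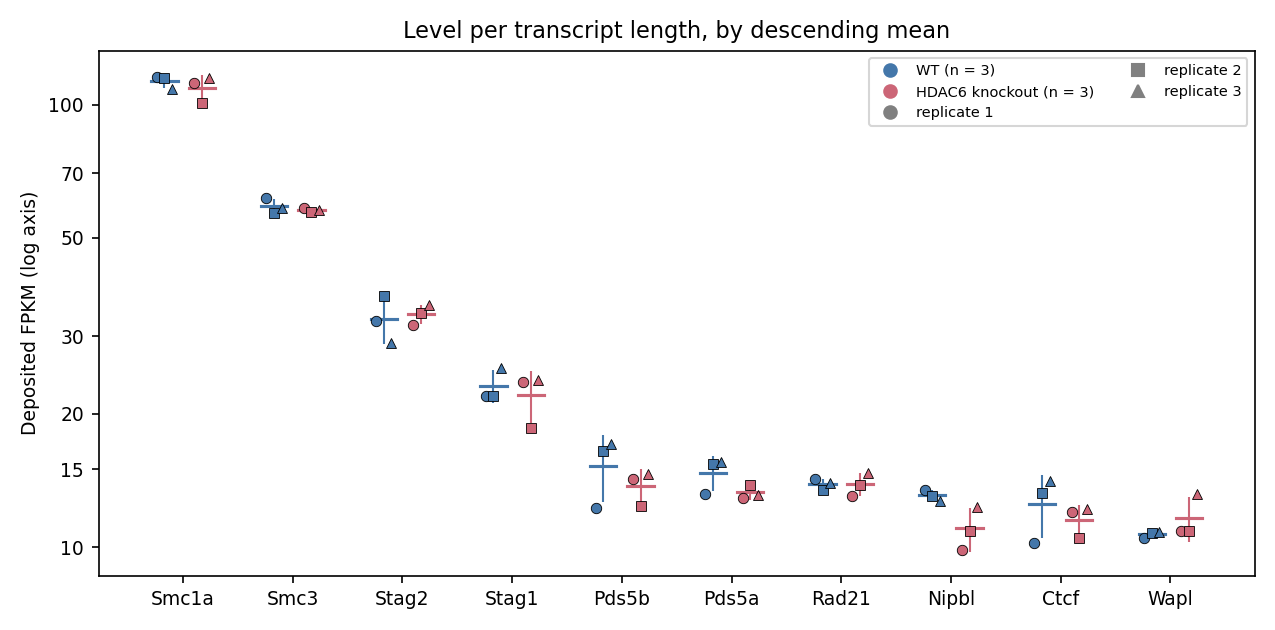
Deposited FPKM (log axis) of each gene per library, ordered by the mean over all 6 libraries, with WT in blue, knockout in red, and lines for mean and SD of 3 libraries. Smc1a, Smc3, Stag2 and Stag1 stand clear of each other, and the other 6 genes share the range of 9.83 to 17.1 FPKM.

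The transcripts are long: in GENCODE M21 the longest coding transcript of each member exceeds the median of 3116 bases over tested genes, from 3782 bases for Ctcf to 9423 bases for Nipbl. The deposited counts were whole numbers in all 6 libraries for 7 members and not whole in any library for Stag1, Nipbl and Ctcf. How these 3 genes came to have counts that are not whole is not described in the labels or file headers.

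Ratios between partner genes within a library do not depend on how libraries are scaled, and 6 were computed from FPKM. Nipbl to Wapl, loader to releaser, was 1.28, 1.21 and 1.18 in WT replicates 1 to 3 and 0.904, 1.00 and 0.937 in knockout replicates 1 to 3. The groups did not overlap, and the lowest WT ratio was above 1 while the highest knockout ratio was at 1. The mean went from 1.22 ± 0.05 to 0.948 ± 0.05 (SD, n = 3 each), a fold of 0.775, with an exact two-sided permutation p of 0.1, the smallest that 3 against 3 can give, and 0.3 after Benjamini-Hochberg adjustment over the 6 ratios. Leaving out single libraries gave log2 differences of -0.41 to -0.33. The ratio combines the gene with the lowest and the gene with the highest log2 fold change of the set, so it is no independent evidence of either. Kit was lower in each knockout library (725 to 1082 CPM) than in each WT library (1127 to 1367 CPM), and Ly6a was higher in each (82.1 to 119 against 60.3 to 68.7 CPM). The part of the progenitor mix in the ratio was not tested.

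Nipbl to Mau2, the loader over its binding partner, was 1.09, 1.08 and 0.769 in WT and 0.750, 0.685 and 0.747 in the knockout. This ratio uses the same Nipbl values as Nipbl to Wapl, so it is no independent evidence of a difference in Nipbl. The groups did not overlap, but WT replicate 3 lay close to the knockout libraries, and the log2 difference was -0.41 with all libraries (exact permutation p = 0.1, adjusted 0.3). It was -0.33 without WT replicate 1, -0.34 without WT replicate 2 and -0.58 without WT replicate 3, and -0.44 to -0.37 with 1 knockout library left out (exact permutation p = 0.2 for each knockout library). Mau2 itself measured 92.1 ± 17.8 CPM in WT and 107 ± 10.8 CPM in knockout libraries (SD, n = 3 each), with overlapping groups.

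The other 4 ratios overlapped between genotypes. Stag2 to Stag1 was 1.48, 1.68 and 1.14 in WT and 1.35, 1.82 and 1.48 in the knockout, above 1 in all 6 libraries. Smc1a to Smc3 was steady at 1.92 ± 0.09 in WT and 1.89 ± 0.12 in the knockout (SD, n = 3 each), while Pds5a to Pds5b stood near 1 in both, at 0.975 ± 0.09 and 0.972 ± 0.12. Ctcf to Rad21 was 0.718, 0.986 and 1.01 in WT and 0.918, 0.759 and 0.826 in the knockout. Exact two-sided permutation p-values of these 4 ratios ran from 0.6 to 0.9, and each was 0.9 after adjustment. The log2 difference of Ctcf to Rad21 was -0.11 with all libraries, -0.26 without WT replicate 1 and -0.02 without WT replicate 3.

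**Figure D4:**
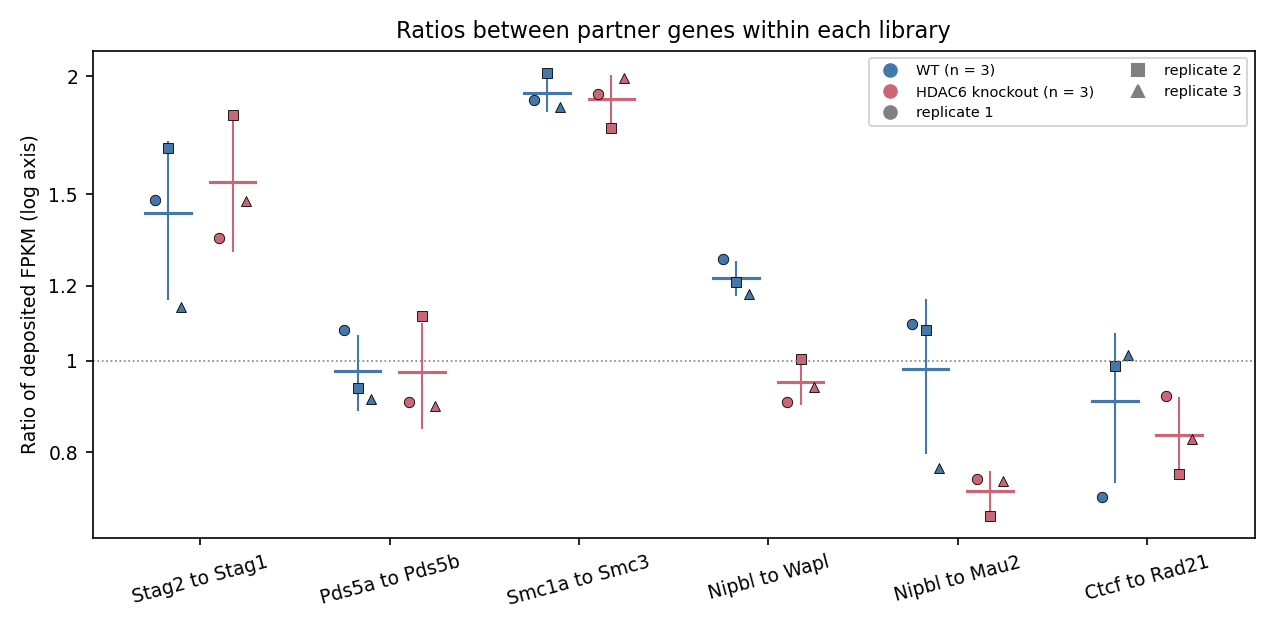
Ratio of deposited FPKM between partner genes in each library (log axis), WT in blue and knockout in red, with mean and SD of 3 libraries, and a dotted line at 1. Nipbl to Wapl is 1.18 to 1.28 in WT and 0.904 to 1.00 in the knockout, and Nipbl to Mau2 also does not overlap, with WT replicate 3 at 0.769 near the knockout values.

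Among other genes of the pathway, none passed the edgeR test. Of 19 tested cofactors and cohesion factors 13 lay above WT and 6 below, with a median log2 fold change of 0.18 against -0.0034 over all tested genes, 6 of 19 with non-overlapping groups (18.6% of all tested genes) and 4 of 19 with an unadjusted p under 0.05 (13.4% of all tested genes). Those higher in every knockout library were Tipin, of the replication fork protection complex, Sgo2a, a shugoshin that shields centromeric cohesin, Esco2, an SMC3 acetyltransferase of S phase, and Dscc1, of a clamp loader. Tipin measured 166 ± 11.6 CPM in WT and 205 ± 13.3 CPM in knockout libraries (edgeR adjusted p = 0.31), and Sgo2a 36.8 ± 3.48 and 48.0 ± 2.82 CPM (adjusted p = 0.313). The ones lower in every knockout library were Esco1, the acetyltransferase that acts outside S phase, and Pttg1, which encodes securin. Esco1 measured 69.8, 65.3 and 70.1 CPM in WT and 49.7, 53.8 and 61.3 CPM in knockout libraries, while Esco2 measured 45.4, 43.8 and 49.3 CPM in WT and 69.0, 51.2 and 49.5 CPM in knockout libraries (edgeR adjusted p of 0.34 and 0.423). Hdac8, which encodes the deacetylase of SMC3 and is named here for that role, had means of 29.9 ± 5.62 CPM in WT and 26.8 ± 3.13 CPM in knockout libraries (SD, n = 3 each), with overlapping groups.

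The sister SMC complexes lay on the higher side with TMM scaling, with which 6370 of all 12875 tested genes lay above WT. Condensin I and II, which compact mitotic chromosomes, had 8 of 8 genes above WT (median log2 fold change 0.12, 0 of 8 with non-overlapping groups against 18.6% of all tested genes, 0 called), but 5 of 8 with library size alone. Its genes with the smallest p, Ncapg2 and Ncapg, had log2 fold changes of 0.21 (SE 0.14) and 0.20 (SE 0.14). The SMC5/6 complex, which acts in DNA repair, had 6 of 6 above WT (median 0.23, 2 of 6 with non-overlapping groups against 18.6% of all tested genes, 0 called), and 4 of 6 with library size alone. Smc6 measured 129 ± 5.89 CPM in WT and 157 ± 11.8 CPM in knockout libraries, and Nsmce4a 7.83 ± 2.30 and 12.3 ± 2.42 CPM (SD, n = 3 each), with edgeR adjusted p of 0.329 and 0.366.

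Other factors tied to chromatin architecture were mixed, with 4 of 10 above WT, a median log2 fold change of -0.09, 4 of 10 with non-overlapping groups against 18.6% of all tested genes, and 0 called. Adnp, which encodes a zinc finger protein that competes with CTCF at some sites, measured 40.2 ± 3.25 CPM in WT and 29.8 ± 4.12 CPM in knockout libraries (edgeR adjusted p = 0.313). Chd8, a remodeler gene, measured 64.9 ± 5.15 and 52.1 ± 3.36 CPM (adjusted p = 0.337), and Yy1 was also lower in every knockout library (adjusted p = 0.349), while Top2a was higher in every one (adjusted p = 0.465). Of the meiotic cohesin genes and the CTCF paralog, 3 passed the filter and all were below WT with overlapping groups. Rec8 measured 21.5 ± 2.68 CPM in WT and 16.4 ± 6.85 CPM in knockout libraries, Stag3 7.69 ± 1.99 and 5.14 ± 3.24 CPM (SD, n = 3 each), and Ctcfl, the paralog, ran from 0.184 to 0.725 CPM.

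**Figure D5:**
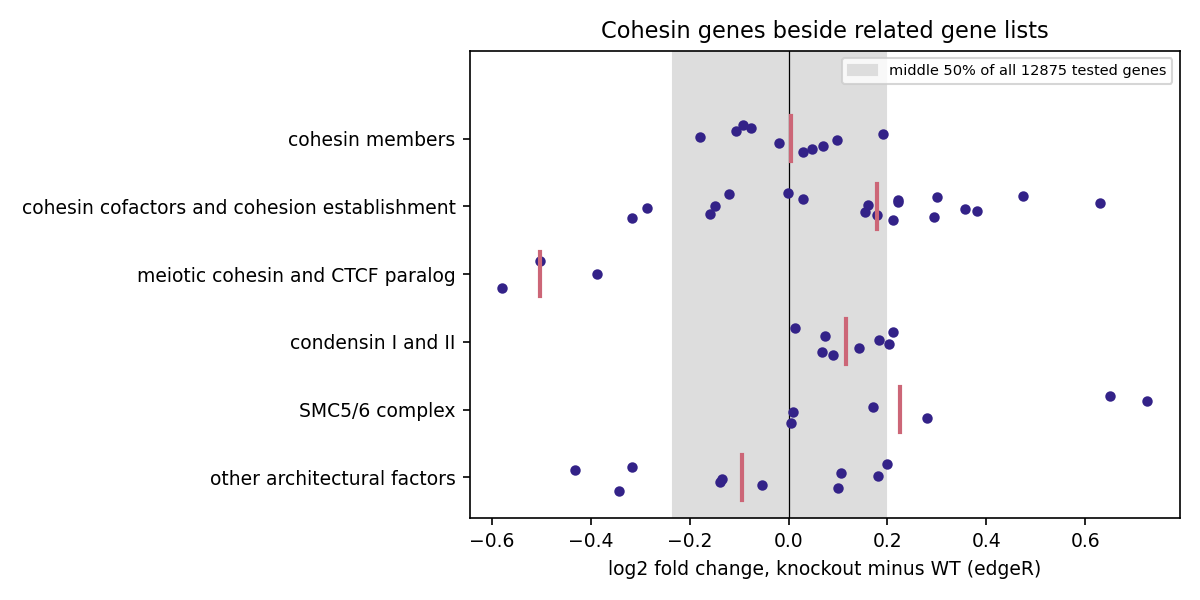
Log2 fold change, knockout minus WT, of single genes (points) in the cohesin set and 5 related lists, with the list median as a red bar and the middle 50% of all 12875 tested genes shaded. All 10 cohesin genes lie in the shaded band of -0.23 to 0.198, with Wapl at 0.191 close to its upper edge. Each of the other lists has genes outside the band, which for condensin are only Ncapg2 at 0.212 and Ncapg at 0.203.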

How the data were processed

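RNA sequencing of LSK cells gave 3 WT and 3 HDAC6 knockout libraries. Per the submitters' processing notes the build was GRCm39 and the tools included featureCounts 2.0.3, HISAT2 2.2.1, SAMtools 1.13 and DESeq2, with no settings. Each symbol has a column of estimated counts and a column of FPKM for each library, per the file headers. In each library 19.6% to 20.9% of these deposited counts were not whole, and they were rounded. Library pairs differed by a chi-square over degrees of freedom of at least 25.8, so each library counted as 1 sample.

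Knockout was compared with WT across all genes with edgeR 4.0.16, quasi-likelihood F test (R 4.3.3, filterByExpr with a minimum count of 10, TMM, robust dispersion, Benjamini-Hochberg). CPM are TMM-normalised. Standard errors and 95% intervals come from the F statistic. Partner ratios used exact permutation tests. Alternatives were RLE, upper-quartile and library-size scaling, 2 other filters, DESeq2 1.42.0, limma-voom (limma 3.58.1), limma on log2(FPKM + 1), the newer edgeR option, the replicate block and each library left out. The test was checked on simulated data. GENCODE M21 (GRCm38) gave names, chromosomes, lengths and overlaps, and RefSeq (GRCm38.p6) the promoters.

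All 10 members are named, with the 2 genes of smallest p of each related list, the 5 most alike and 5 most opposite genes, and others named after their values were seen. The members and lists were chosen with earlier results of these data known.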

Additional observations from a re-analysis of the deposited data

How the results depend on the processing

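No member was called under any of the 16 alternatives. The sign turned with library size alone for Smc1a (-0.045), Smc3 (-0.028) and Rad21 (-0.0023), with upper-quartile scaling for Smc1a (-0.022) and Smc3 (-0.0048), and on the log2(FPKM + 1) scale for Smc1a (-0.048), Smc3 (-0.026) and Rad21 (-0.0022). These scalings moved the median of all tested genes to -0.08, -0.05 and -0.05. Leaving out 1 library gave log2 fold changes of -0.0039 to 0.075 for Smc1a, -0.083 to 0.074 for Stag1, -0.21 to 0.029 for Pds5b and -0.24 to 0.0022 for Ctcf, and log2 ratio differences of -0.039 to 0.24 for Stag2 to Stag1, -0.11 to 0.066 for Pds5a to Pds5b, -0.061 to 0.027 for Smc1a to Smc3 and -0.26 to -0.016 for Ctcf to Rad21. Over all genes edgeR called 1 gene, DESeq2 181, and edgeR 1 to 44 with a library left out (4 without knockout replicate 1, 44 without knockout replicate 3). The cause was not tested.

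With the replicate number as a block, edgeR called 1 gene, Nipbl had a log2 fold change of -0.18 and Wapl of 0.19, and the Nipbl to Wapl difference was -0.37 (exact sign-flip p = 0.25, the smallest that 3 pairs can give). Deviations of same-numbered libraries correlated at 0.03, -0.04 and -0.12. The labels state no pairing. These values cannot show whether the samples were paired, since each deviation is taken from a mean of only 3 libraries. With 3 libraries a group, fold changes of the members smaller than their intervals were not detectable.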
